A study of Mus musculus with 4 samples.

Results

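DNA replication and S phase genes are the 40 genes considered here, which run from the MCM helicase and the origin licensing factors to the polymerases, the enzymes of nucleotide supply and the regulators of S phase entry. They were chosen by name for their part in DNA synthesis, and each was read on its brightest probe set by mean log2 value over the 4 arrays, among those to which the platform annotation gives a single gene symbol. Of the 40, 39 were measured, out of 18194 genes with such a probe set, and Chaf1a was not analysed here.

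Expression was measured in mammary fibroblasts of female FVB/N mice of 16 weeks, on 1 Affymetrix array for each of 4 genotypes. ErbB2 Ets2 null fibroblasts carried ErbB2;Fsp-cre;Ets2db/loxP, and ErbB2 Ets2 present fibroblasts carried ErbB2;Ets2db/loxP. Normal Ets2 null fibroblasts carried FspCre;Ets2db/loxP, and normal Ets2 present fibroblasts carried Ets2db/loxP. In the ErbB2 groups the oncogene is a transgene under the MMTV promoter, which drives it in mammary epithelium, and the tissue was taken before tumors could be felt. The Fsp-cre transgene expresses Cre from the Fibroblast Specific Protein 1 promoter and deletes the loxP allele of Ets2, an ETS family transcription factor. All 4 groups carry the db allele, a conventional knockout that targets the DNA-binding domain, so the groups with Ets2 have a single functional allele. Digested tissue was separated by gravity, and cells were grown in medium with 10% serum and collected at the second passage, so the values describe cells grown in culture and not cells in the gland. The sources used here do not give how many mice stood behind each array. Since each genotype was hybridised to 1 array, no replicate error and no test could be had: each value below is a description of 4 arrays, and a difference between genotypes cannot be told apart from a difference between single cultures or hybridisations.

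A cell copies its genome once per cycle. In G1 the origin recognition complex with Cdc6 and Cdt1 loads the ring of Mcm2 to Mcm7 onto origins, and at S phase entry Cdc45 and the GINS proteins turn the ring into the active helicase, behind which primase, polymerases, the Pcna clamp and ligase make the new strands. Most of these genes are known targets of E2F transcription factors, which are released from pocket proteins when cyclin D and cyclin E kinases are active, so their transcripts are high in cycling cultures and low in quiescent ones.

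The promoters of 6 members are shown, those of Rrm2 and of the MCM ring genes in the promoter table, because the MCM ring genes were all lower by more than 0.5 on the log2 scale in ErbB2 Ets2 null than in ErbB2 Ets2 present fibroblasts, while Rrm2 differed in opposite directions with and without ErbB2. They are RefSeq windows of GRCm38.p6, 250 bases before and 50 bases after the transcription start, read in the direction of the gene. Capitals mark the E2F letters searched on both strands, TTTCCCGC, TTTCGCGC, TTTGGCGC and TTTGCCGC, with overlapping matches run together. The windows are chr6:88898731-88899030 on the minus strand for Mcm2, chr1:20820263-20820562 on the minus strand for Mcm3, chr8:75109259-75109558 on the plus strand for Mcm5, chr1:128359656-128359955 on the minus strand for Mcm6, chr5:138171834-138172133 on the minus strand for Mcm7 and chr12:24708004-24708303 on the plus strand for Rrm2.
Mcm2: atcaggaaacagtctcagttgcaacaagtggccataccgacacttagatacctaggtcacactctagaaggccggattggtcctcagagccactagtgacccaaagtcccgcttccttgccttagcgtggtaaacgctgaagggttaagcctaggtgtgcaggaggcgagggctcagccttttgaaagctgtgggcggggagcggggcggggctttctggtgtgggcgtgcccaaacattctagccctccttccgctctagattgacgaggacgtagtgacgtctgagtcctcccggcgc
Mcm3: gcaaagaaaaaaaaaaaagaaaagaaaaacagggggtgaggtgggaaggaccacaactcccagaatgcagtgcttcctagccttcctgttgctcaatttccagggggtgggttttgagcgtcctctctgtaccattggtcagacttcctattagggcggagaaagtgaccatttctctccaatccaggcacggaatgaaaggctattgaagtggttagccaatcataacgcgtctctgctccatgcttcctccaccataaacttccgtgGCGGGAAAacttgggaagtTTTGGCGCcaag
Mcm5: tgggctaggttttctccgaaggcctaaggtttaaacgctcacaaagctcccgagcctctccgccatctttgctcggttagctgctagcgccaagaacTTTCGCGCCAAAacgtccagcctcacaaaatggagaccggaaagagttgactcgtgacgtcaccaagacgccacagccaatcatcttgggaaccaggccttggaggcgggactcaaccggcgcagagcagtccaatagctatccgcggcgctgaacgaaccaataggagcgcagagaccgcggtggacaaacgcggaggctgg
Mcm6: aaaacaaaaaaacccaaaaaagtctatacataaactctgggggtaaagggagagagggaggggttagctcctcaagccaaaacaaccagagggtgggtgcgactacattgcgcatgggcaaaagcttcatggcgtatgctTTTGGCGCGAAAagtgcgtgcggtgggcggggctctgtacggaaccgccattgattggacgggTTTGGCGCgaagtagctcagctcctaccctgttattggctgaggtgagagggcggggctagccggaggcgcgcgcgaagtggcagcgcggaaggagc
Mcm7: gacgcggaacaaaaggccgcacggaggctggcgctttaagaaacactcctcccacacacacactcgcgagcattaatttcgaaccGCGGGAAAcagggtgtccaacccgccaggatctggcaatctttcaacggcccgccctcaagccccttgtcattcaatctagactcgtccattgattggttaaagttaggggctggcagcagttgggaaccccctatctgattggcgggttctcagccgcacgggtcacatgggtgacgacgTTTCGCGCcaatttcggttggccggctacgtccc
Rrm2: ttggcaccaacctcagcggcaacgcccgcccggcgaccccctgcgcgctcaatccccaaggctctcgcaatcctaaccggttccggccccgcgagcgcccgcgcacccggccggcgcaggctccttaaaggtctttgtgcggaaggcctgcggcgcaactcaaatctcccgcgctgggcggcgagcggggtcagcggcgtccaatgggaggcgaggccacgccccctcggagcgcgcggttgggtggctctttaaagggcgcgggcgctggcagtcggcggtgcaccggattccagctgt

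Mcm6 held 3 matches, 2 of them overlapping, and Mcm3, Mcm5 and Mcm7 held 2 each, those of Mcm5 overlapping. Mcm2, Rrm2 and a second Mcm7 window (chr5:138171217-138171516, not shown) had none of these letters, and Mcm2 differed by -0.79 in the ErbB2 comparison beside -0.73 for Mcm5 and -0.54 for Mcm7. The promoter table held 33 of the 40 members, in 40 windows, and 14 of the 33 members (42.4%) had at least 1 match. Counted the same way, by gene, the share was 2.6% of all genes in the table and 3.81% of those on the arrays. Counted by window, it was 35.0% of the members' windows and 2.26% of all 32851. The CCAAT letters stood on either strand in 20 of the 33 members (60.6%), against 41.1% of all genes in the table. The 14 members with E2F letters had a median log2 difference of -0.56 between ErbB2 Ets2 null and ErbB2 Ets2 present fibroblasts, and the 18 measured members without had -0.59, so the medians were close.

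Values are log2 expression from RMA, in which arrays were brought to nearly the same distribution, and a difference of 1 is 2-fold. The median of all probe sets lay between 5.51 and 5.54 on the 4 arrays, and 42.5% to 42.8% of them stood at log2 6 or more, a level used here as a floor for bright probe sets. On the array with the fewest, 37 of the 39 members stood at or above that floor, and Tyms lay below it on every array. The fibroblast list (12 genes such as Col1a1, Dcn and Pdgfra) was at log2 6 or more on every array for 12 of 12 genes. The brightest probe set of Ets2 read 8.31 and 8.34 in the ErbB2 Ets2 null and ErbB2 Ets2 present fibroblasts and 8.35 and 8.14 in the normal Ets2 null and normal Ets2 present fibroblasts. The sources used here do not place that probe set relative to the deleted part of the gene, so it does not check the labels.

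In the ErbB2 background, replication transcripts were lower without Ets2 almost throughout the set (below, the ErbB2 pair and the normal pair are the Ets2 null and Ets2 present arrays of each background, and a difference within a pair is Ets2 null minus Ets2 present). The median over the 39 members of the difference ErbB2 Ets2 null minus ErbB2 Ets2 present was -0.58 (1.49-fold lower), against 0.04 over all 18194 genes, and its middle 50% ran between -0.70 and -0.41. The difference was below 0 for 38 of the 39 members, where 44.2% of all genes were below 0. It was lower by more than 0.5 for 23 members, against 7.46% of all genes and 10.9% of those at log2 6 or more on the higher of the 2 arrays. Ccne2 alone was lower by more than 1 (1.74% of all genes), no member was lower by more than 2, the 4-fold size that the study applied to these arrays (0.324% of all genes), and none was higher by more than 0.5 (5.05% of all genes).

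In normal fibroblasts the same genes stood close together. The median of normal Ets2 null minus normal Ets2 present was -0.03 over the members and -0.00 over all genes, with 22 of 39 members below 0, where 50.5% of all genes were. No member was lower by more than 0.5 (2.87% of all genes), and Rrm2 alone was higher by more than 0.5 (3.51% of all genes). The difference between the ErbB2 and the normal Ets2 differences, which share no array, had a median of -0.50 over the members and 0.04 over all genes, and was below 0 for 38 of 39 members (44.4% of all genes).

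**Figure D1:**
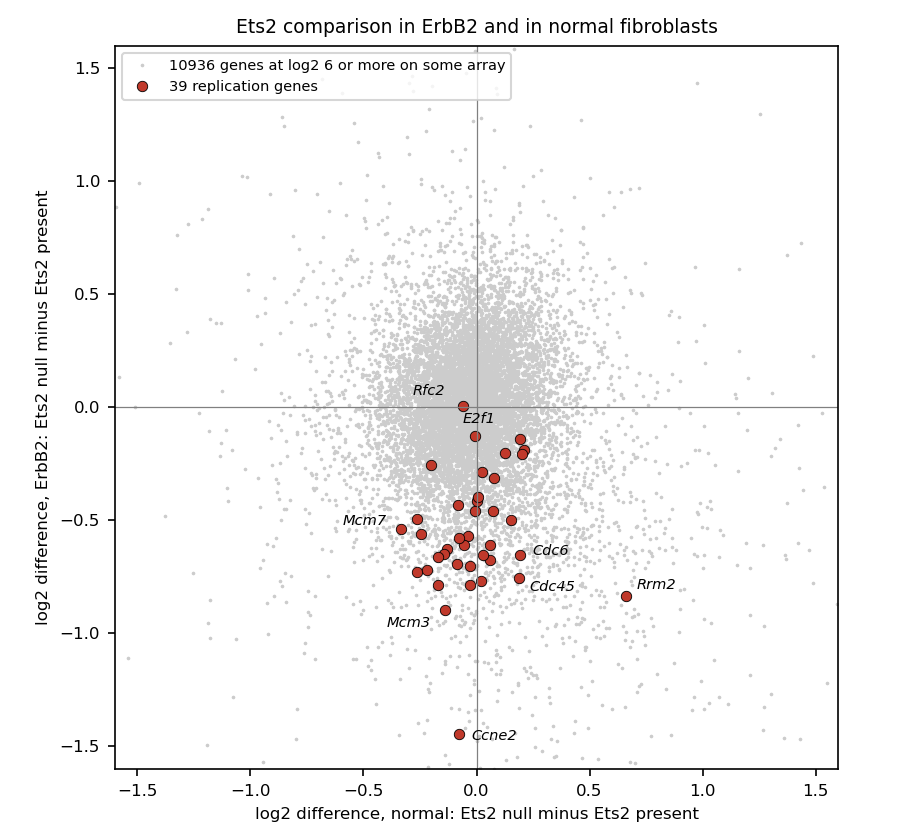
Log2 difference Ets2 null minus Ets2 present with ErbB2 (y axis) and without the oncogene (x axis), 1 point per gene, with the 39 replication genes in red and the 10936 genes at log2 6 or more on some array in grey; genes past 1.6 on either axis are not drawn. All red points but Rfc2 lie below 0 on the y axis, with Ccne2 the lowest at -1.44, and only Rrm2 lies past 0.5 on the x axis.

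The Mcm2 to Mcm7 genes, which encode the ring of the replicative helicase, were all lower by more than 0.5 in ErbB2 Ets2 null than in ErbB2 Ets2 present fibroblasts, with a median difference of -0.76. Mcm3 read 8.61 and 9.51 in the ErbB2 Ets2 null and ErbB2 Ets2 present fibroblasts and 8.68 and 8.82 in the normal Ets2 null and normal Ets2 present fibroblasts. Its ErbB2 difference of -0.90 (1.86-fold lower) was the second in size among the members, and its normal difference was -0.14. The value with ErbB2 and Ets2 stood apart, while the other 3 lay within 0.21.

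Mcm6 read 9.47 in ErbB2 Ets2 null and 10.25 in ErbB2 Ets2 present fibroblasts, and 9.54 in normal Ets2 null and 9.57 in normal Ets2 present fibroblasts, with differences of -0.79 in the ErbB2 pair and -0.03 in the normal pair. Mcm2 read 8.65 in ErbB2 Ets2 null and 9.44 in ErbB2 Ets2 present fibroblasts, and 8.68 in normal Ets2 null and 8.85 in normal Ets2 present fibroblasts, with differences of -0.79 and -0.17 in these pairs. Both showed the shape of Mcm3, with 3 arrays close together and ErbB2 Ets2 present above them. Mcm4 and Mcm5 were lower by 0.69 and 0.73 on the log2 scale in the ErbB2 pair. Mcm7 was the least separated of the ring, with 10.24 in ErbB2 Ets2 null and 10.78 in ErbB2 Ets2 present fibroblasts, and 10.09 in normal Ets2 null and 10.42 in normal Ets2 present fibroblasts, so that its difference of -0.54 in the ErbB2 pair stood beside -0.33 in the normal pair. In the normal pair all 6 were below 0, with a median of -0.16.

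Of the origin licensing genes, Orc6, a subunit of the origin recognition complex, and Cdc6, the loader that joins it, were lower by more than 0.5 in the ErbB2 pair. Orc6 read 8.58 in ErbB2 Ets2 null and 9.26 in ErbB2 Ets2 present fibroblasts, against 8.71 in normal Ets2 null and 8.65 in normal Ets2 present fibroblasts. Cdc6 read 6.47 in ErbB2 Ets2 null and 7.12 in ErbB2 Ets2 present fibroblasts, against 6.79 in normal Ets2 null and 6.60 in normal Ets2 present fibroblasts. For Cdc6 the ErbB2 difference was -0.65 and the normal difference 0.19, with opposite signs. Orc1, the ATPase subunit of the complex, differed by -0.29 in the ErbB2 pair, and Cdt1, the partner of Cdc6 in loading the ring, by -0.20.

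Cdc45, which joins the loaded ring at origin firing, read 7.35 in ErbB2 Ets2 null and 8.11 in ErbB2 Ets2 present fibroblasts, and 7.57 in normal Ets2 null and 7.39 in normal Ets2 present fibroblasts. Its ErbB2 difference was -0.76 (1.69-fold lower) and its normal difference 0.19. The GINS genes, whose products complete the active helicase, differed less: Gins1, Gins2 and Gins3 by -0.50, -0.14 and -0.25 in the ErbB2 pair. Mcm10, an activator of the assembled helicase, differed by -0.46.

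Pcna, the sliding clamp that holds polymerases on DNA, read 11.56 in ErbB2 Ets2 null and 12.13 in ErbB2 Ets2 present fibroblasts, and 11.52 in normal Ets2 null and 11.55 in normal Ets2 present fibroblasts. Its 3 lower values lay within 0.05, and ErbB2 Ets2 present stood 0.57 above the next. Among the clamp loader subunits, Rfc4 and Rfc5 were lower by 0.72 and 0.61 on the log2 scale in the ErbB2 pair and Rfc3 by 0.41. Rfc2 was the exception of the whole set, at 9.20 in both ErbB2 Ets2 null and ErbB2 Ets2 present fibroblasts, against 9.06 and 9.12 in normal Ets2 null and normal Ets2 present fibroblasts.

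Of the polymerase and primase genes, 5 of 6 were lower by more than 0.5 in the ErbB2 pair, with a median of -0.64. Prim1, the catalytic subunit of primase, read 8.26 in ErbB2 Ets2 null and 8.96 in ErbB2 Ets2 present fibroblasts, and 8.22 in normal Ets2 null and 8.25 in normal Ets2 present fibroblasts. The 3 lower values of Prim1 lay within 0.04 of each other, the ErbB2 difference was -0.70 and the normal difference -0.03. Prim2, the other primase subunit, and Pola1 and Pola2, subunits of the polymerase that extends the primers, differed by -0.65, -0.63 and -0.61 in the ErbB2 pair. Pole, the catalytic subunit of the leading strand polymerase, differed by -0.65, and Pold1, that of the lagging strand polymerase, by -0.43.

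Lig1, the ligase that seals lagging strand fragments, was lower by 0.58 on the log2 scale in the ErbB2 pair. Rpa2, a subunit of the single-strand binding complex, differed by -0.46, and Fen1, the nuclease that trims the flaps of those fragments, by -0.19.

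The nucleotide supply genes held Rrm2, the only member past 0.5 in opposite directions in the ErbB2 and the normal pair. Rrm1, the large subunit of ribonucleotide reductase, read 10.37 in ErbB2 Ets2 null and 11.14 in ErbB2 Ets2 present fibroblasts, and 10.65 in normal Ets2 null and 10.63 in normal Ets2 present fibroblasts, with differences of -0.77 and 0.02. Rrm2, the small subunit of the same enzyme, read 10.57 in ErbB2 Ets2 null and 11.41 in ErbB2 Ets2 present fibroblasts, against 11.46 in normal Ets2 null and 10.80 in normal Ets2 present fibroblasts. The Ets2 difference of Rrm2 was thus -0.83 with ErbB2 and 0.66 without, and its highest array was the normal Ets2 null one. Its other 2 probe sets gave -0.82 and -0.99 in the ErbB2 pair and 0.73 and 0.45 in the normal pair, so all 3 probe sets of Rrm2 had the opposite signs. Tyms, thymidylate synthase, was dim on all arrays at 4.05 in ErbB2 Ets2 null and 4.61 in ErbB2 Ets2 present fibroblasts, and Tk1, thymidine kinase of the salvage route, differed by -0.31.

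Among the regulators of S phase entry, Ccne2, a cyclin E, had the largest ErbB2 difference of the set. It read 5.48 in ErbB2 Ets2 null and 6.93 in ErbB2 Ets2 present fibroblasts, against 6.13 in normal Ets2 null and 6.21 in normal Ets2 present fibroblasts. The ErbB2 difference was -1.44 (2.72-fold lower) on its only probe set, whose ErbB2 Ets2 null value lay below log2 6, and the normal difference was -0.08. Ccne1, the other cyclin E, differed by -0.21 in the ErbB2 pair and 0.20 in the normal pair, and E2f1, an activating E2F, by -0.13 and -0.01.

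Uhrf1 and Dnmt1, which carry DNA methylation over to the new strand, were lower by 0.66 and 0.49 on the log2 scale in the ErbB2 pair, and Chaf1b, a subunit of the chromatin assembly factor that follows the fork, by 0.40. In the normal pair Dnmt1 differed by -0.27, Uhrf1 by -0.17 and Chaf1b by 0.01.

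**Figure D2:**
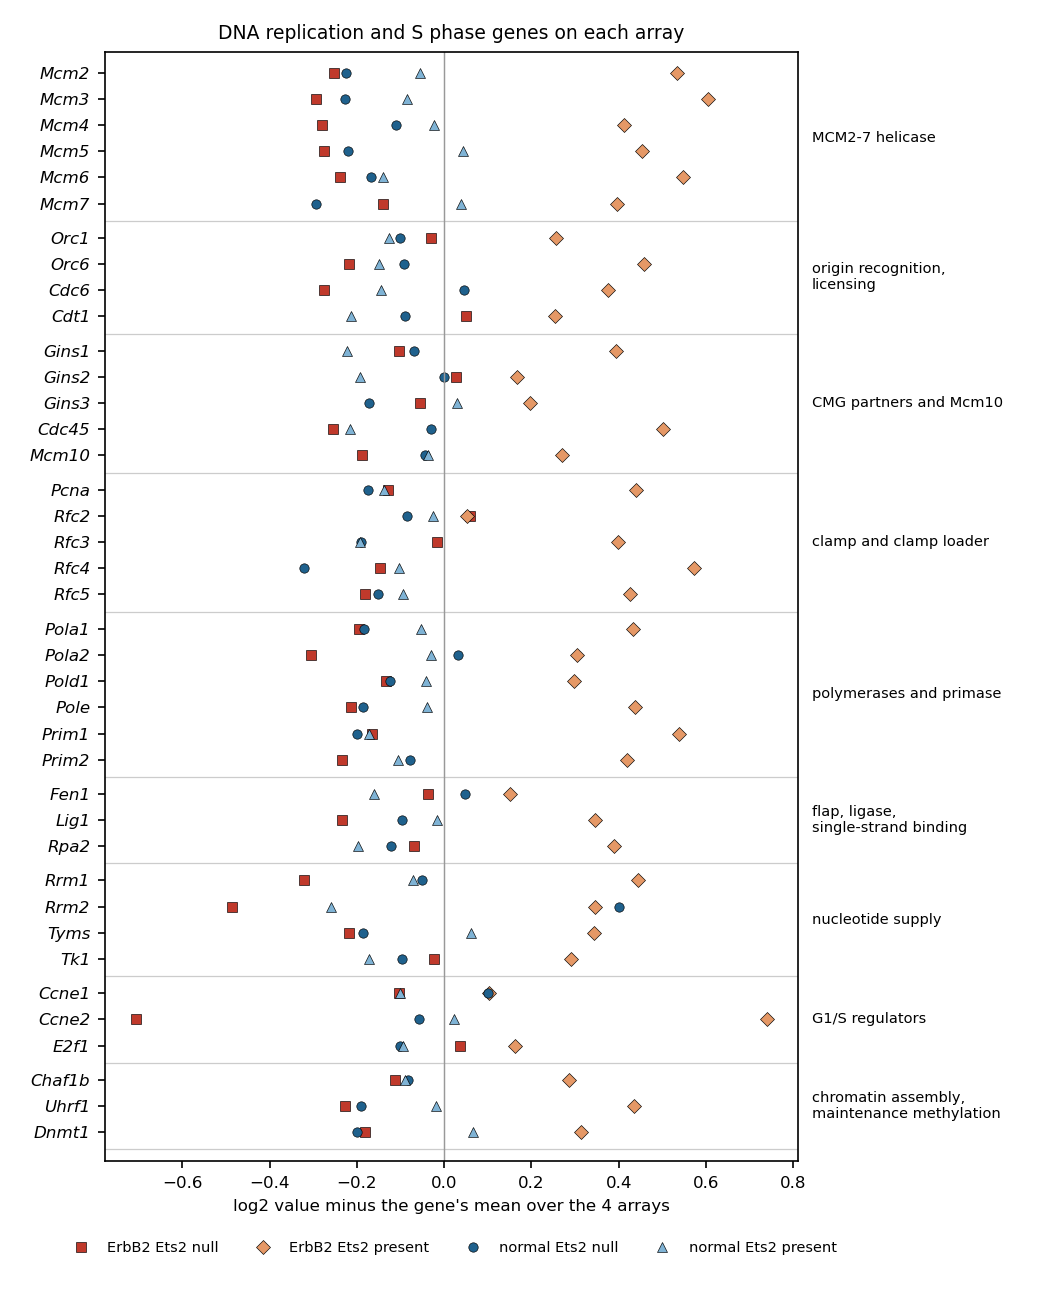
Log2 value of each measured member on each of the 4 arrays, less the mean of that gene over the 4 arrays (x axis), with genes grouped by role down the page and 1 marker per array. ErbB2 Ets2 present, the orange diamond, is rightmost for 37 of 39 genes; for Rrm2 the normal Ets2 null array is rightmost and for Rfc2 the ErbB2 Ets2 null array.

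Across the 4 arrays, ErbB2 Ets2 present was the highest for 37 of 39 members, where it was the highest for 23.9% of all genes and 30.4% of those at log2 6 or more on some array. It stood above the other 3 arrays by more than the range of those 3 for 28 of 39 members, against 7.82% of all genes. Among genes at log2 6 or more on some array that share was 10.6%. On lists described below it was 51.3% of further replication genes, 51.7% of mitosis genes and 56.2% of myeloid markers. It was 25% of E2F and pocket protein genes, 15.4% of CDK inhibitors, G1 cyclins and kinases, and 0% of ribosomal protein genes. Over the members the gap to the next array had a median of 0.41 and ran between -0.05 for Rrm2 and 0.72 for Ccne2, and the range of the other 3 arrays had a median of 0.20. ErbB2 Ets2 null was the lowest for 23 of 39 members, where it was the lowest for 23.7% of all genes. The 2 normal arrays were the lowest for 8 members each (20.5%). Over all genes, normal Ets2 null was the lowest for 24.9% and normal Ets2 present for 20.4%.

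Set against normal fibroblasts, ErbB2 fibroblasts with Ets2 had higher replication transcripts and those without Ets2 stood close to normal. The difference ErbB2 Ets2 present minus normal Ets2 present was above 0 for 39 of 39 members (46.4% of all genes) and above 0.5 for 17 (4.08% of all genes), with a median of 0.47, or 1.38-fold, against -0.02 over all genes. It ran between 0.08 for Rfc2 and 0.72 for Cdc45, and no member passed 1 (0.83% of all genes). The difference ErbB2 Ets2 null minus normal Ets2 null had a median of -0.03, against 0.03 over all genes, with 25 of 39 members below 0 (45.1% of all genes). Rrm2 at -0.89 and Ccne2 at -0.65 were the members lower by more than 0.5 there (5.14% of all genes). The ErbB2 Ets2 comparison and the comparison of oncogene status with Ets2 present share the ErbB2 Ets2 present array, so a high reading on that single array enters both, with opposite signs, and they are not separate evidence.

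**Figure D3:**
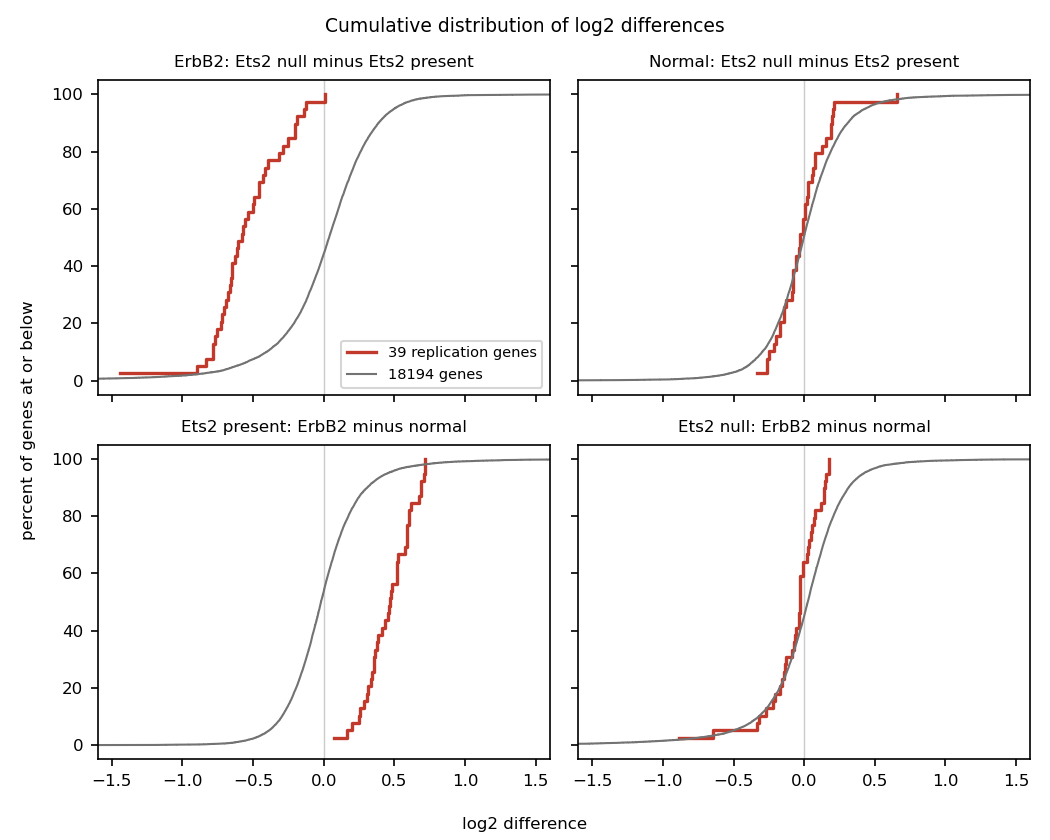
Cumulative percent of genes (y axis) at or below each log2 difference (x axis, drawn between -1.6 and 1.6) for the 39 replication genes in red and 18194 genes in grey, with a panel for each of the 4 comparisons. The red curve lies left of the grey one for ErbB2 Ets2 null minus ErbB2 Ets2 present (median -0.58), right of it for ErbB2 minus normal with Ets2 present (median 0.47), and near it in the other panels.

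Several genes had more than 1 probe set, which gives a second reading of the same RNA but no second sample. The 39 members had 88 probe sets, 31 members had several, and 30 of the 49 that were not the brightest of their gene stood at log2 6 or more on some array. Of those 30, 28 were below 0 in the ErbB2 pair (44.2% of all genes), with a median of -0.55. In the normal pair 17 were below 0 (50.5% of all genes), with a median of -0.06. The 2 above 0 in the ErbB2 pair were of Prim2 (0.11) and Rfc2 (0.07). Some members with a small difference on their brightest probe set had a larger one on another. In the ErbB2 pair these included Gins2 at -0.68, Fen1 at -0.66, Cdt1 at -0.62, Orc1 at -0.51 and Ccne1 at -0.48. That probe set of Orc1 gave 0.48 in the normal pair, against 0.02 on its brightest. For Mcm6 and Mcm4 the other bright probe set gave -1.22 and -1.17 in the ErbB2 pair. In the normal pair it gave -0.33 and -0.31, against -0.03 and -0.09 on the brightest. On that probe set the lower 3 arrays of Mcm6 were thus less close together. The same held for another bright probe set of Mcm3, at 8.14 in ErbB2 Ets2 null, 8.25 in normal Ets2 null and 8.68 in normal Ets2 present fibroblasts. It read 9.06 in ErbB2 Ets2 present fibroblasts. Its normal difference was -0.43, and the further bright probe sets of Mcm3 gave 0.10 and -0.29. Of the 19 dim ones, 10 were below 0 in the ErbB2 pair.

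**Figure D4:**
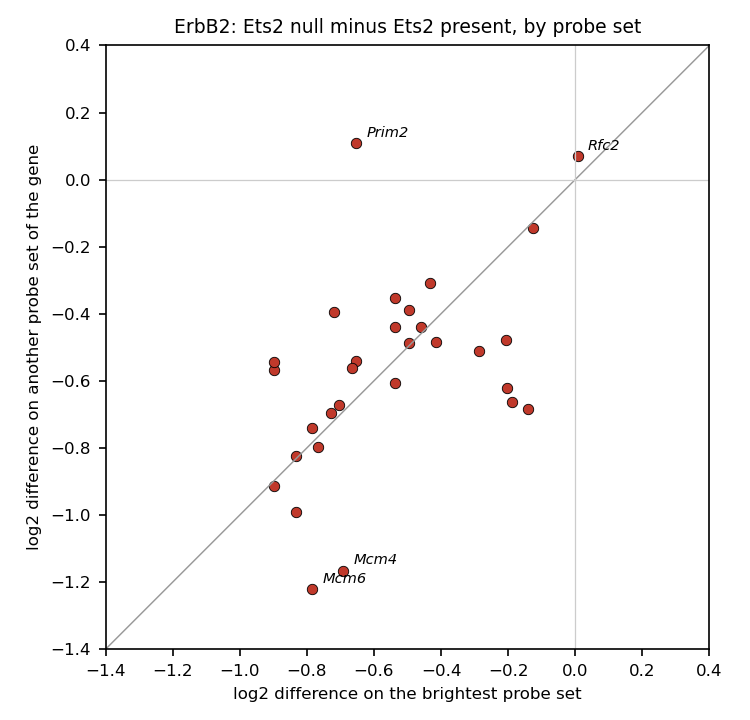
Log2 difference ErbB2 Ets2 null minus ErbB2 Ets2 present on the brightest probe set of a gene (x axis) and on each other probe set of that gene at log2 6 or more on some array (y axis), with the line of equal values. All but 2 of the 30 points lie below 0 on the y axis, the others being a probe set of Prim2 and one of Rfc2.

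Neighbouring cell cycle lists showed where the pattern extended. For the counts on these lists, 44.2% of all genes were below 0 in the ErbB2 pair and 7.46% were lower by more than 0.5. A further 39 measured replication genes, of 40 listed, had a median of -0.34 in the ErbB2 pair and -0.07 in the normal pair, with 33 below 0 and 15 lower by more than 0.5 in the ErbB2 pair. Hells, a chromatin remodeller of replicating cells, read 7.15 in ErbB2 Ets2 null and 8.03 in ErbB2 Ets2 present fibroblasts, and Dck, a kinase of nucleoside salvage, read 6.92 in ErbB2 Ets2 null and 7.80 in ErbB2 Ets2 present fibroblasts, each a difference of -0.88. In the normal pair only Dut, which removes dUTP, was lower by more than 0.5 on this list, at 8.06 in Ets2 null and 8.59 in Ets2 present fibroblasts. Top2a, the topoisomerase that untangles replicated DNA, differed by -0.56 in the ErbB2 pair and -0.18 in the normal pair.

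Mitosis genes were lower too, with a median between those of the 39 members and of the further replication genes. Of 29 measured, 27 were below 0 in the ErbB2 pair and 7 were lower by more than 0.5, with a median of -0.43, against -0.08 in the normal pair. Ect2, needed for cytokinesis, and Aurkb, the kinase of the chromosomal passenger complex, differed by -0.75 and -0.74. Mki67, the proliferation antigen, read 9.44 in ErbB2 Ets2 null and 9.93 in ErbB2 Ets2 present fibroblasts, and 9.61 in normal Ets2 null and 9.90 in normal Ets2 present fibroblasts, so its 2 values with Ets2 were nearly equal. Cenpf, a kinetochore protein, had the largest normal difference of the list, at -0.41.

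Of 12 E2F and pocket protein genes, 9 were below 0 and 5 lower by more than 0.5 in the ErbB2 pair, with a median of -0.35, against 0.09 in the normal pair. E2f7 and E2f8, the atypical E2F repressors that are themselves E2F targets, differed by -1.24 and -0.76 in the ErbB2 pair, with 6.80 in Ets2 null and 8.04 in Ets2 present fibroblasts for E2f7, and 6.53 in Ets2 null and 7.29 in Ets2 present fibroblasts for E2f8. The 13 CDK inhibitors, G1 cyclins and kinases had a median of 0.07 in the ErbB2 pair and -0.15 in the normal pair. In the ErbB2 pair 5 were below 0, 3 of them lower by more than 0.5, and 8 were above 0. Cdkn2d, a CDK inhibitor, differed by -0.61 in the ErbB2 pair and -0.28 in the normal pair. On that list Ccnd1, a cyclin D, differed by -0.66 in the ErbB2 pair and 0.33 in the normal pair, and Cdkn1c, an inhibitor of cyclin-dependent kinases, by 0.13 and 1.20. Cdkn1b, another such inhibitor, read 5.58 in normal Ets2 null and 6.38 in normal Ets2 present fibroblasts, opposite in direction to Cdkn1c. The 10 measured ribosomal protein genes, a list outside the cell cycle, had a median of 0.11 in the ErbB2 pair and -0.03 in the normal pair, and none was below 0 in the ErbB2 pair. The shares with motif letters differed between these lists, with E2F letters in 33.3% of the further replication genes and 3.85% of the mitosis genes in the promoter table, and CCAAT in 76.9% of the mitosis genes.

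**Figure D5:**
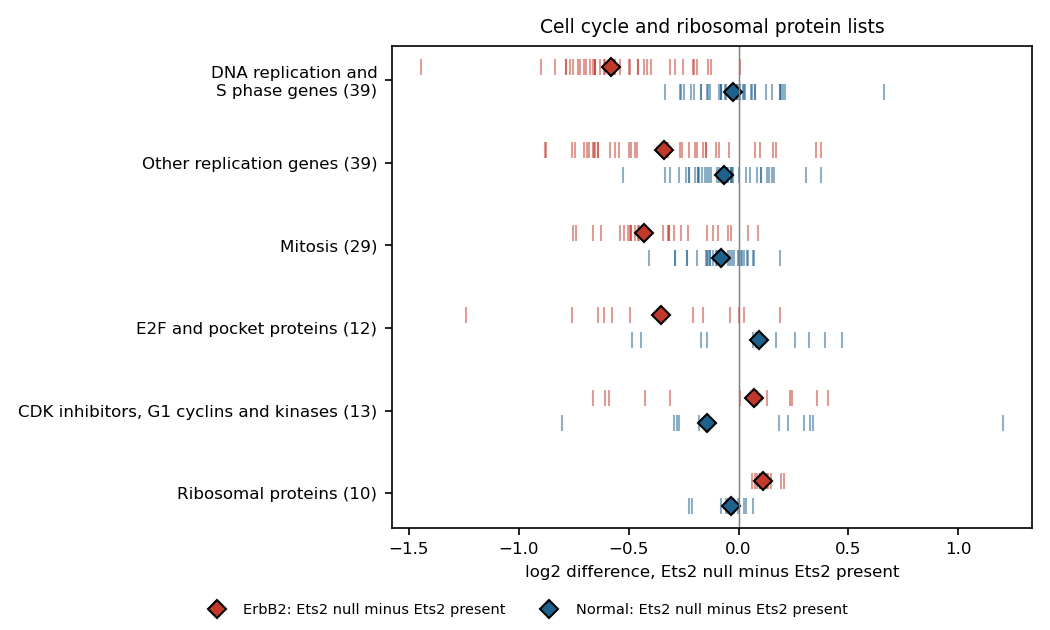
Log2 difference Ets2 null minus Ets2 present (x axis) for each gene (ticks) and the median (diamonds) of 6 lists, in ErbB2 fibroblasts in red above and normal fibroblasts in blue below. In ErbB2 fibroblasts the medians run between -0.58 for the replication genes and 0.11 for ribosomal proteins, and in normal fibroblasts between -0.15 and 0.09.

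Markers of other cells moved over the same arrays. The myeloid list (16 genes such as Cd68, Csf1r and Tyrobp) was below 0 for 16 of 16 genes in the ErbB2 pair (44.2% of all genes), with a median of -1.08. Its summed level, as log2, was 12.92 in ErbB2 Ets2 null and 14.13 in ErbB2 Ets2 present fibroblasts, and 12.98 and 13.27 in normal Ets2 null and normal Ets2 present fibroblasts, highest on the same array as the replication genes, whose own summed level was 14.17 in ErbB2 Ets2 null, 14.73 in ErbB2 Ets2 present, 14.30 in normal Ets2 null and 14.25 in normal Ets2 present fibroblasts. The epithelial list (14 genes such as Krt8 and Krt18) summed to 9.86 in ErbB2 Ets2 null and 11.46 in ErbB2 Ets2 present fibroblasts, and to 11.76 in normal Ets2 null and 10.34 in normal Ets2 present fibroblasts, high on the 2 arrays on which Rrm2 was high. Not every brightest probe set on it followed the sum, and that of Epcam, which ends in _x_at, was picked out after its values were seen. It read 8.10 in ErbB2 Ets2 null, 8.32 in ErbB2 Ets2 present, 7.98 in normal Ets2 null and 8.29 in normal Ets2 present fibroblasts. On another probe set the study lists Epcam as more than 4-fold higher in normal Ets2 null than in normal Ets2 present fibroblasts, so Epcam depended on the probe set. The muscle list (9 genes) summed to 10.13 in ErbB2 Ets2 null, 11.51 in ErbB2 Ets2 present, 12.10 in normal Ets2 null and 11.19 in normal Ets2 present fibroblasts. Its higher sum in normal Ets2 null fibroblasts came from Acta1, at 11.89 there and 10.34 in normal Ets2 present fibroblasts. In the normal pair 8 of the 9 muscle genes were below 0 (50.5% of all genes), with a median of -0.75. Over the 4 arrays the endothelial list (9 genes) ran between 9.02 and 9.91, lowest in ErbB2 Ets2 null, and the fibroblast list between 16.49 and 16.77, lowest in normal Ets2 null fibroblasts. In the ErbB2 pair the muscle and endothelial lists were below 0 for 9 of 9 genes each (44.2% of all genes), with medians of -1.22 and -0.50. Of the 14 epithelial genes, 12 were below 0 in the ErbB2 pair and 12 above 0 in the normal pair (49.4% of all genes). Single fibroblast genes varied more than their sum, between -1.03 and 0.64 in the ErbB2 pair, with 7 of 12 below 0 (44.2% of all genes) and 5 above. At log2 6 or more on every array were 13 of 16 myeloid, 6 of 14 epithelial, 3 of 9 muscle and 2 of 9 endothelial markers. The lowest values of any probe set on the 4 arrays lay between 2.19 and 2.29, so a marker value above 0 does not show detection. The part of these cells in the replication values was not tested. In these bulk cultures fewer cycling cells, fewer cells of a type and less RNA per cell cannot be told apart.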

How the data were processed

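The authors deposited log2 expression values made with RMA, a tool that their methods and the submitters' processing notes name. The sources used here do not name the software, its version or the probe definitions. RMA equalises the distributions of arrays and hides a difference common to most genes. Of 45101 probe sets, the platform annotation gave 34958 exactly 1 symbol, 932 several and 9211 none, and only the first were named. Each gene was read on its brightest such probe set. Differences of log2 values were taken in Python 3.11.15 with pandas 2.3.3, numpy 2.4.6 and statsmodels 0.14.6, with figures from matplotlib 3.10.9, and scripts were tested on simulated data. Sizes of 0.5, 1 and 2 on the log2 scale served for counts. With 1 array per genotype no test was run, and the number of arrays limits the precision. Every member could be named. Outside them the rule named Ets2, Mki67, Top2a and, from each other list, the 2 genes with the largest absolute difference in each Ets2 comparison among those at log2 6 or more on the higher array. The members and all lists were chosen with earlier results of these data known. Alternatives were the mean of all probe sets, leaving out probe sets ending in _x_at or _s_at, median centring, quantile normalization, loess correction (span 0.4) and a floor at log2 6. Promoter windows came from RefSeq, GRCm38.p6. The values carry no build, so no other coordinates are given.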

Additional observations from a re-analysis of the deposited data

Results flagged for a closer look

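Rrm2 had Ets2 differences of opposite sign, at -0.83 for ErbB2 Ets2 null minus ErbB2 Ets2 present and 0.66 for normal Ets2 null minus normal Ets2 present, both past 0.5 on the log2 scale. The difference between them was not tested. The median of the 14 epithelial markers also had opposite signs, at -1.61 in the ErbB2 pair and 1.53 in the normal pair, and that difference was not tested either.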

How the results depend on the processing

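Of 390 values recomputed under 6 alternatives, 3 moved and 387 did not, and none reversed among values past a size used for counts. A median was taken as moved when it shifted by more than the robust SD of that comparison over all genes, and a count of members when it differed by more than 1.5 times. Many counts of members were 0 under every setting and add to the 387 without showing that a result held. Median centring could shift values only slightly, since the array medians lay between 5.51 and 5.54. The median ErbB2 difference (Ets2 null minus Ets2 present) of the polymerase and primase genes was -0.37 with the mean of all probe sets, against -0.64 on the brightest. Without probe sets ending in _x_at or _s_at, that of the S phase entry regulators was -0.48, against -0.21, and the ErbB2 minus normal median with Ets2 present of the Fen1, Lig1 and Rpa2 group was 0.59, against 0.36. Over the alternatives the median of the 39 members lay between -0.62 and -0.45 in the ErbB2 pair, with 16 to 25 members lower by more than 0.5 (23 as reported), and between -0.04 and 0.01 in the normal pair. For ErbB2 minus normal it lay between 0.42 and 0.49 with Ets2 present, with 14 to 18 members above 0.5 (17 as reported), and between -0.06 and -0.01 in Ets2 null fibroblasts. No paired analysis was possible because each genotype had 1 array, so leaving out a replicate was not possible either. Dim probe sets such as that of Tyms bound what these arrays can show.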
